A study of Mus musculus with 6 samples.

Results

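The Hox cluster genes were read as every non-control probe of the array whose gene name was Hoxa, Hoxb, Hoxc or Hoxd followed by a number. The 38 genes analysed here had 50 probes, of 61307 probes under 50090 gene names, and 12 of the genes had 2 probes. The accession of all 50 probes led to the same symbol in a RefSeq table. RNA came from NIH3T3 cells, a line of mouse embryonic fibroblasts, infected with retrovirus to express either GFP alone or SIRT7GFP, the nucleolar sirtuin SIRT7 fused to GFP. GFP cells were the control, and LT7 and ST7 were isolated as single cell clones from the SIRT7GFP culture, LT7 large and spindle shaped and ST7 small, round and growing in tight colonies. The labels describe the GFP cells as expanded from single cells too. Each of the 3 groups had 2 arrays of RNA from different passages, so the p-values measure the spread between passages of a clone, and the effect of SIRT7 and that of the clone cannot be told apart.

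Hox genes encode homeodomain transcription factors and lie in 4 clusters, HoxA to HoxD, in which genes of the same paralog number descend from a common ancestor. Along each cluster the order of the genes follows the order in which they are switched on along the body axis, from anterior paralogs that pattern hindbrain and neck to posterior paralogs that pattern lumbar, sacral, limb and urogenital tissue. Fibroblasts keep part of the Hox pattern of the body site they came from, held by Polycomb repression of silent genes and Trithorax activity on active ones. Here paralogs 1 to 3 are called anterior, 4 to 8 central and 9 to 13 posterior.

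The signal given below is the processed signal of the scanner software, an intensity after background subtraction, before any scaling between arrays. A probe counts as above background where the software marked its spot as well above background, a gene where any of its probes was so marked, and a line where this held on both arrays. The median signal of all probes was between 19.3 and 25.6 on the GFP arrays, 18.03 and 18.7 on the LT7 arrays and 3.32 and 3.78 on the ST7 arrays. The ST7 arrays thus stood apart from the others. The share of probes above background was 53.5% to 57.5% in GFP, 47.4% to 47.5% in LT7 and 25.6% to 26.4% for ST7. Both mouse Sirt7 probes gave 2140 to 3630 on the GFP and LT7 arrays but 2.85 to 3.28 on the arrays labelled ST7, where they were not above background. The species of the SIRT7 coding sequence in the retrovirus is not given in the sources used here, so these probes may check only the gene of the mouse. The identity and the species of the RNA on the arrays labelled ST7 were not tested, and ST7 below stands for the arrays with that label. All 10 fibroblast markers were above background in GFP and in LT7, while in ST7 only 4 were. Their summed signal was 324100 to 364200 in GFP and LT7 and 15030 to 16560 in ST7, and Dcn, Lum, Thy1, Pdgfra, Pdgfrb and Col3a1 were not above background there. Of 10 epithelial markers 2 were above background in GFP cells, 1 in LT7 cells and 4 in ST7 cells, with summed signals of 123 to 203, 147 to 195 and 2038 to 2221. Most of the ST7 sum was Krt18, with 1881 and 1755. Cdh1, Krt19, Cldn4, Ocln and Esrp1 were above background on no ST7 array, and Krt8 was lower, with 15.3 and 5.82 against 123 and 62.2 in GFP. The part of these shifts in the results on Hox genes was not tested, and fewer cells of a type and less RNA per cell cannot be told apart in such samples.

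Since several results in ST7 rested on probes that lie in the homeobox, the part of the gene that encodes the DNA-binding homeodomain, 6 of these 60-base probes are shown as listed in the scanner files. Those of Hoxb13 and Hoxd13 belonged to genes above background in ST7 alone, those of Hoxa4 and Hoxd9 to genes whose other probe went the other way in ST7, and those of Hoxa13 and Hoxd10 are shown for comparison. The capitals mark the codons of a conserved homeodomain stretch that was found in a reading frame without a stop.
Hoxa4: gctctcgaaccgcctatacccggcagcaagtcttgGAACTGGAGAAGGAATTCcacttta
Hoxa13: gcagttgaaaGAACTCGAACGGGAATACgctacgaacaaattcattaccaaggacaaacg
Hoxb13: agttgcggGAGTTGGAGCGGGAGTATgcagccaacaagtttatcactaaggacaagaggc
Hoxd9: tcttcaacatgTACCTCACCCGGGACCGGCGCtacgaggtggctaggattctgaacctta
Hoxd10: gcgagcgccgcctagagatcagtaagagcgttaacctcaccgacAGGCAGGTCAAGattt
Hoxd13: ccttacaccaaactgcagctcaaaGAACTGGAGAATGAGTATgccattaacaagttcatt
The scanner files list the Hox probes as unmapped, so no genome positions are given for them.

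In GFP 20 of the 38 Hox genes were above background, in LT7 19 and in ST7 27. Over all gene names with a protein-coding RefSeq accession the shares were 57.5%, 51.1% and 26.6%, against 52.6%, 50% and 71.1% of the Hox genes. The Hox genes were thus above background about as often as other genes in GFP and LT7, and in ST7 they made a larger share while the share of all genes was lower. Of the genes, 16 were above background in all 3 lines, 2 in GFP and LT7 (Hoxa2, Hoxd8), 2 in GFP alone (Hoxb5, Hoxc5), 1 in LT7 and ST7 (Hoxa11) and 10 in ST7 alone. The latter were Hoxb2, Hoxb4, Hoxb7, Hoxb8, Hoxb13, Hoxc10, Hoxc11, Hoxc12, Hoxd11 and Hoxd13. The remaining 7 genes met the rule in no line, and of these Hoxd1 was above background on ST7 replicate 2 alone and Hoxa10, Hoxa13, Hoxb1, Hoxc8, Hoxc13 and Hoxd12 on no array.

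By position, anterior genes were above background in 4 of 7 cases in each line, central genes in 11 of 15 in GFP cells, 9 in LT7 cells and 11 in ST7 cells, and posterior genes in 5 of 16 in GFP cells, 6 in LT7 cells and 12 in ST7 cells. Posterior genes held 6 of the 10 genes above background in ST7 alone, and 16 of all 38 genes. A smaller share of them was above background in GFP than of the anterior or central genes, which left more of them that could be above background in ST7 alone. By cluster, HoxA had 7 of 10 genes above background in GFP cells, 8 in LT7 cells and 7 in ST7 cells. HoxB had 4 of 10 in GFP cells, 3 in LT7 cells and 8 in ST7 cells. HoxC had 4, 3 and 6 of 9, and HoxD had 5, 5 and 6 of 9. In GFP and LT7 no gene of paralogs 10 to 13 was above background but Hoxd10 in both lines and Hoxa11 in LT7.

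**Figure D1:**
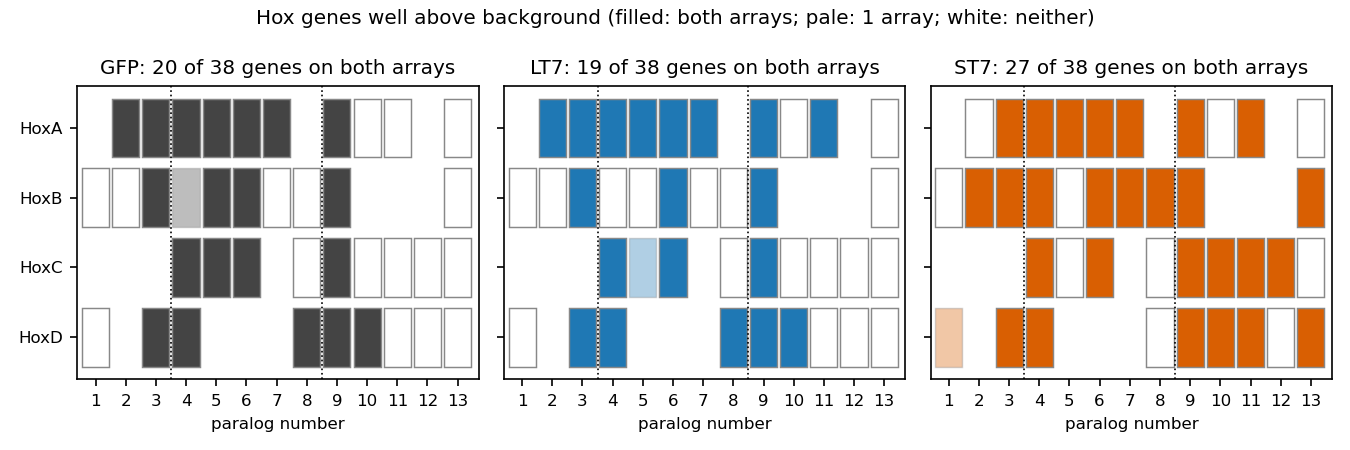
Hox genes above background in GFP, LT7 and ST7, with the cluster on the vertical axis and the paralog number on the horizontal axis; outlined boxes are the genes analysed, filled where both arrays of the line were above background, pale where 1 was and white where neither was, and dotted lines part anterior, central and posterior paralogs. The filled boxes number 20 in GFP cells, 19 in LT7 cells and 27 in ST7 cells, and those at paralogs 9 to 13 number 5 in GFP and 12 in ST7.

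Among the anterior genes, Hoxa2, the selector of the second branchial arch, gave a signal of 187 and 125 on the GFP arrays, 258 and 188 on the LT7 arrays and 2.91 and 3.20 on the ST7 arrays. Hoxa2 was thus not above background in ST7, at least 10.4-fold below GFP on the unscaled signal. Hoxb2, another hindbrain gene, showed the opposite pattern, with 5.86 and 2.83 in GFP cells, 5.12 and 4.69 in LT7 cells and 439 and 437 in ST7 cells, at least 32.5-fold above GFP.

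Paralog group 3 patterns the lower hindbrain, neck and pharyngeal organs. Hoxa3 gave 46.4 and 25.2 in GFP cells, 52.9 and 33.6 in LT7 cells and 113 and 94.7 in ST7 cells on its brightest probe. Hoxb3 gave 151 and 85.4 in GFP cells, 85.2 and 113 in LT7 cells and 1024 and 774.5 in ST7 cells, also on its brightest probe. On these probes both ST7 values lay above all other values, whereas on the second probe of each gene both lay below the GFP values, with 31.4 and 40.7 against 88.8 and 83.7 for Hoxa3 and 23.9 and 16.2 against 26.8 and 25.7 for Hoxb3. Hoxd3 gave 54.0 and 28.5 in GFP cells, 49.9 and 50.5 in LT7 cells and 32.5 and 19.8 in ST7 cells, and the GFP and ST7 values overlapped. Hoxb1 stayed between 2.84 and 8.35 on all 6 arrays and was above background on none.

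Among the central genes, which pattern the cervical and thoracic axis, Hoxa5, needed for lung and sternum, gave 294 and 320 in GFP cells, 656 and 266 in LT7 cells and 453 and 394.5 in ST7 cells. Hoxa6 gave 58.5 and 28.3 in GFP cells, 31.0 and 36.3 in LT7 cells and 158 and 72.1 in ST7 cells. Hoxa7 had the highest GFP signal of the Hox probes, 6855 and 6685, with 4260 and 6743 in LT7 cells and 221 and 174 in ST7 cells. It remained above background in ST7, but its unscaled signal was 34.6-fold below GFP there. The 75th percentile of the signal of all probes also fell, from 323.3 or more in GFP to 17.11 or less in ST7. With each array scaled to its 75th percentile, Hoxa7 was 1.64-fold below GFP, a log2 change of -0.71 (adjusted p = 0.091, limma). The median of all probes, 3.78 or less in ST7, lay near the background there.

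Hoxb6 gave 176 and 130 in GFP cells, 260 and 206 in LT7 cells and 7901 and 7709 in ST7 cells. This was the highest Hox signal on the ST7 arrays, 51.6-fold above GFP. Its neighbour Hoxb7 gave 11.4 and 7.80 in GFP cells, 5.19 and 7.57 in LT7 cells and 250.3 and 258 in ST7 cells. Hoxb8, known for a role in haematopoiesis and in microglia-linked grooming, gave 8.17 and 3.77 in GFP cells, 4.12 and 4.80 in LT7 cells and 135 and 115 in ST7 cells on its brightest probe. Hoxb7 was at least 18.8-fold and Hoxb8 at least 9.23-fold above GFP. Hoxb4, a factor of blood stem cell expansion, gave 22.0 and 12.9 in GFP cells, 4.65 and 10.3 in LT7 cells and 143 and 66.6 in ST7 cells, and of the GFP arrays only replicate 1 was above background. Hoxb5 went the other way, with 59.3 and 39.0 in GFP cells, 4.33 and 4.49 in LT7 cells and 14.2 and 3.12 in ST7 cells, and was above background in GFP alone.

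In HoxC, Hoxc4 gave 990.3 and 714 in GFP cells, 1199 and 669 in LT7 cells and 2585 and 2398 in ST7 cells on its brightest probe. Its second probe gave 88.9 and 105.9 in GFP cells, 113.1 and 134.2 in LT7 cells and 130.9 and 101.5 in ST7 cells. Hoxc5 gave 34.7 and 46.8 in GFP cells, 13 and 42 in LT7 cells and 3.0 and 3.41 in ST7 cells. Hoxc6 gave 1293 and 505 in GFP cells, 923 and 460.5 in LT7 cells and 919 and 594 in ST7 cells. Hoxc4 was thus higher in ST7 than on any other array on its brightest probe but overlapped between the lines on the other, Hoxc5 was lost there and Hoxc6 overlapped between all lines. Hoxc8, a thoracic gene, stayed between 2.78 and 10.3 and was above background on no array.

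In HoxD, Hoxd4 gave 1744 and 647 in GFP cells, 1977 and 924.5 in LT7 cells and 957 and 547 in ST7 cells, with overlap of the lines. Hoxd8 gave 896 and 686.5 in GFP cells, 1175 and 1183 in LT7 cells and 2.84 and 3.17 in ST7 cells. It was at least 53.3-fold below GFP in ST7, while both LT7 values lay above both GFP values.

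**Figure D2:**
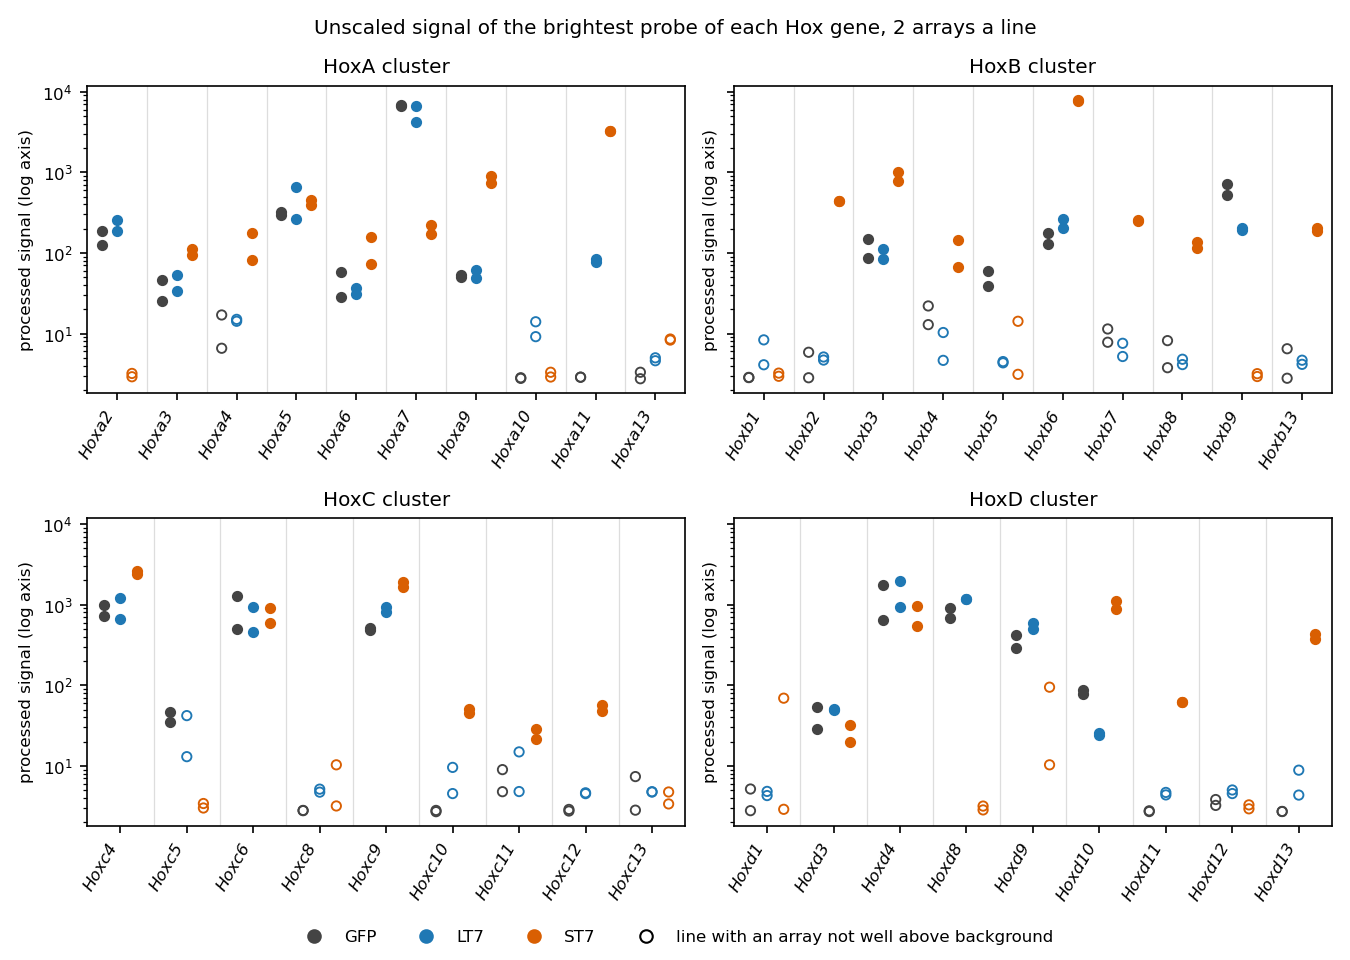
Unscaled processed signal (log axis) of the brightest probe of each Hox gene, by cluster and in order of paralog number, with 1 point per array for GFP, LT7 and ST7; filled points are lines with both arrays above background and open points lines with an array that was not. The ST7 points of Hoxa11, Hoxb6 and Hoxd13 lie far above the GFP points, and those of Hoxa2, Hoxb9 and Hoxd8 lie near 3.

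Posterior genes serve limb, lumbosacral axis, gut and reproductive tract. Hoxa9, a gene of haematopoiesis, gave 53.6 and 49.6 in GFP cells, 48.8 and 61.0 in LT7 cells and 892.5 and 747 in ST7 cells. Hoxa11, needed for the zeugopod, kidney and uterus, gave 2.87 and 2.88 in GFP cells, 85.0 and 78.2 in LT7 cells and 3253 and 3273 in ST7 cells. The mean of its signals was 2.88 ± 0.00207 (SD, n = 2) for GFP, 81.6 ± 4.81 for LT7 and 3263 ± 13.8 for ST7. The GFP values were not above background, so their SD does not measure a spread of expression between passages. Among the 38 genes Hoxa11 was the only gene that met the rule for a gene above background in LT7 and ST7 but not in GFP, and its LT7 and ST7 values differed 40.0-fold on the unscaled signal.

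Hoxb9, a thoracic gene, gave 707 and 525 in GFP cells, 194 and 202 in LT7 cells and 2.93 and 3.18 in ST7 cells on its brightest probe. Hoxb13, a gene of the prostate and tail, gave 2.79 and 6.48 in GFP cells, 4.15 and 4.67 in LT7 cells and 189 and 204 in ST7 cells. Hoxb13 was thus read in ST7 alone, at least 14.6-fold above GFP. Hoxc9 gave 483 and 513 in GFP cells, 924 and 821 in LT7 cells and 1936 and 1670 in ST7 cells, so that the lines did not overlap. Hoxc10, Hoxc11 and Hoxc12 were above background in ST7 alone. There Hoxc10 gave 45.4 and 50.1, Hoxc11 28.9 and 21.5 and Hoxc12 56.8 and 48.5, against 2.7 to 8.98 in GFP and 4.52 to 14.9 in LT7.

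Hoxd9 gave 425 and 287 in GFP cells, 585.5 and 501.5 in LT7 cells and 10.3 and 94.6 in ST7 cells on its brightest probe, of which the second ST7 array alone was above background. Hoxd10, a limb and motor neuron gene, gave 88.5 and 76.8 in GFP cells, 25.5 and 23.8 in LT7 cells and 1100 and 885 in ST7 cells. The 3 lines did not overlap for Hoxd10, with LT7 lowest and ST7 highest. Hoxd11, which acts with Hoxa11 in the forearm, gave 2.77 and 2.71 in GFP cells, 4.36 and 4.68 in LT7 cells and 62.8 and 62.3 in ST7 cells. Hoxd13, the gene of digit patterning, gave 2.71 and 2.72 in GFP cells, 4.34 and 8.84 in LT7 cells and 370.3 and 431 in ST7 cells, at least 29.6-fold above GFP. Hoxa10, Hoxa13, Hoxc13 and Hoxd12 stayed between 2.75 and 14 on their probes and were above background on no array.

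LT7 was compared with GFP with limma on the log2 of the processed signal less the 75th percentile of each array, with Benjamini-Hochberg adjustment over all probes and the brightest probe standing for its gene. Of the 38 Hox genes 1 was called higher and 0 lower at an adjusted p under 0.05, against 0.0838% and 0.24% of protein-coding gene names. Without adjustment 16 of the 38 passed 0.05, against 26.7% of those names, and the median log2 change was 0.45, against 0.20. Hoxa11 was the gene called, by 4.92 on the log2 scale (limma, SE 0.20, adjusted p = 0.011), or at least 6.47-fold. The call was lost without GFP replicate 1 (adjusted p = 0.27, limma) and without GFP replicate 2 (adjusted p = 0.13, limma), while the change stayed at 4.80 and 5.05. LT7 replicate 1 was alone in a second scan. Without it, and so within the first scan, the change was 4.92 (adjusted p = 0.022, limma), and without both ST7 arrays, a fit chosen after the values were seen, it was 4.92 (adjusted p = 0.040, limma).

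The lowest log2 changes in LT7 among the Hox genes did not pass the test. On the log2 scale Hoxb5 changed by -3.35 (SE 0.73), Hoxd10 by -1.64 (SE 0.22) and Hoxb9 by -1.52 (SE 0.20), each with an adjusted p of 0.10 by limma. The second probe of Hoxb9, above background in each line, changed by 0.06 (SE 0.64, adjusted p = 0.97, limma). The fall of Hoxb9 in LT7 thus rests on 1 probe. By the fold rule of the study's methods, which asks for a log2 ratio to GFP of at least 0.8 in each replicate and over 1 on average, these 3 genes were lower and Hoxa10, Hoxa11 and Hoxc10 higher. The rule called 3.45% of protein-coding gene names higher and 3.09% lower, against 7.89% and 7.89% of the Hox genes. It sets no lowest signal, and Hoxa10 and Hoxc10 were not above background in either line. Hox probes that were not above background had a median signal of 2.84 and 3.10 in GFP and 4.89 and 4.76 in LT7, so that genes not above background came out slightly higher in LT7. Among the 19 genes whose brightest probe was above background in GFP, the unscaled signal was higher on both LT7 arrays than on both GFP arrays for Hoxa2, Hoxb6, Hoxc9, Hoxd8 and Hoxd9, which is 26.3% against 15.5% of such genes, and lower for Hoxb5, Hoxb9 and Hoxd10, 15.8% against 29.7%.

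For ST7 the percentile shift matters, since it adds 4.40 on the log2 scale, or 21.1-fold, to each difference from GFP. The median log2 change of all probes was then 3.72, against -0.68 without scaling, 1.78 where only probes above background on every array set the percentile, 0.37 after quantile normalization and -0.51 after scaling to the spike-in RNAs. After the shift 31 of the 38 Hox genes were called higher than GFP and 3 lower (Hoxa2, Hoxb9, Hoxd8), against 63.4% and 28.6% of protein-coding gene names, and the fold rule gave the same counts against 63.1% and 27.4%. Without scaling 19 Hox genes were called higher and 6 lower, and the share of all gene names called in that fit is not given here. Hoxa10, Hoxa13, Hoxb1, Hoxc8, Hoxc13 and Hoxd12, which were above background on no array, were among the genes called higher after the shift. Under all 5 scalings the brightest probe of 26 genes was above GFP and that of 4 below, Hoxa2, Hoxa7, Hoxb9 and Hoxd8, while 8 changed direction with the scaling. The share of all gene names that kept 1 direction under the 5 scalings is not given here, so these counts have no background to be set against. Of the 26 genes 5 were above background in no line.

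Changes are therefore given less the median of all probes. On this scale the posterior genes ranged from -6.96 (Hoxb9) to 10.83 (Hoxa11), with 14 of 16 above 0, of which 4 were above background in no line. Of the anterior genes 6 of 7 lay above 0, of which 2 were above background in no line, and of the central genes 11 of 15, of which 1 was. The place of these 7 genes relative to 0 is that of probes at the background, and no medians are given for this reason. The highest values after Hoxa11 were 7.88 for Hoxd13, 7.43 for Hoxb2, 6.37 for Hoxb6 and 6.21 for Hoxb13. The lowest were -7.35 for Hoxd8, -6.96 for Hoxb9, -4.97 for Hoxa2 and -4.43 for Hoxa7. The SE of these 8 values other than Hoxa11 lay at or under 0.50, and each of the 8 except Hoxa7 (adjusted p = 0.091, limma) passed the test after the shift. GFP was not above background for Hoxa11, Hoxd13, Hoxb2 and Hoxb13, and ST7 was not for Hoxd8, Hoxb9 and Hoxa2 on these probes. The values of these genes thus rest on a line at the background and are no measured folds. The second probe of Hoxb9, above background in GFP and ST7, lay at 1.32. Hoxd3 and Hoxd4 lay at 0.05 and 0.12, so that their position relative to all probes was not settled.

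**Figure D3:**
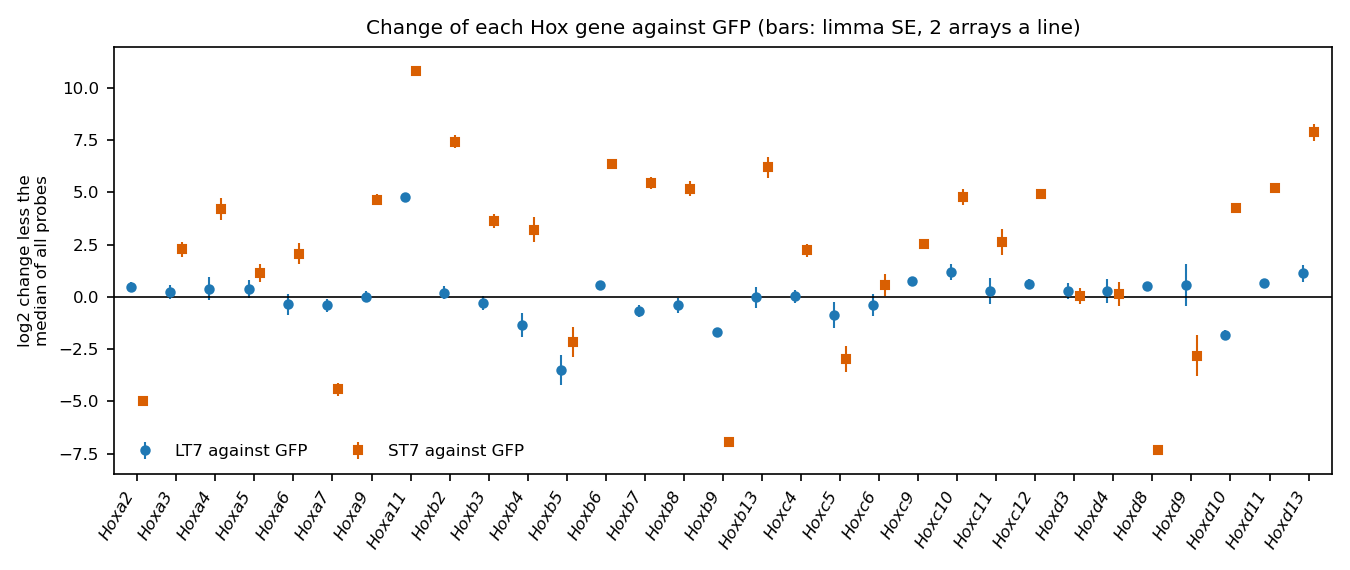
Log2 change against GFP less the median change of all probes, for the 31 Hox genes whose brightest probe was above background in at least 1 line, with circles for LT7, squares for ST7 and bars for the limma SE with 2 arrays a line. The LT7 values run from -3.51 for Hoxb5 to 4.76 for Hoxa11, and the ST7 values run from -7.35 for Hoxd8 to 10.83 for Hoxa11. At each of these ends the dimmer line was not above background.

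Measured without scaling and on the brightest probe, 9 of the 19 genes above background in GFP had a higher signal on both ST7 arrays than on both GFP arrays, which is 47.4%, against 7.59% of such genes over all protein-coding names. The 9 genes were Hoxa3, Hoxa5, Hoxa6, Hoxa9, Hoxb3, Hoxb6, Hoxc4, Hoxc9 and Hoxd10. A lower signal on both ST7 arrays was found for 7 (Hoxa2, Hoxa7, Hoxb5, Hoxb9, Hoxc5, Hoxd8, Hoxd9), 36.8% against 86.9%. The second probes of Hoxa3, Hoxb3, Hoxb9 and Hoxd9 went the other way and that of Hoxc4 overlapped. The brightest probe was chosen by its mean signal over all arrays, ST7 included, for Hox genes and other genes alike. This choice could favour a probe that was high in ST7. On probes chosen in this way, a larger share of the Hox genes than of all such genes had a higher signal on the dim arrays.

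ST7 was also compared with LT7 directly. After the shift 32 Hox genes were called higher in ST7 and 3 lower (Hoxa2, Hoxb9, Hoxd8), against 63.4% and 28.7% of protein-coding gene names. Less the median of all probes, Hoxb2 stood at 7.19, Hoxd13 at 6.72, Hoxb13 at 6.19, Hoxb7 at 6.05 and both Hoxa11 and Hoxd10 at 6.03, while Hoxd8 stood at -7.91 and Hoxa2 at -5.46. LT7 was not above background for Hoxb2, Hoxd13, Hoxb13 and Hoxb7, and ST7 was not for Hoxd8 and Hoxa2. Without scaling 20 Hox genes were called higher and 8 lower, again without a share of all gene names to set beside them. LT7 and ST7 share the GFP arrays, so their changes against GFP are given side by side and were not correlated.

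The 12 genes with 2 probes allow a check within a gene. In GFP the probes disagreed, with 1 above background on both arrays and the other on neither, only for Hoxd3, which is 8.33% against 12.2% of protein-coding genes with 2 probes. In LT7 they disagreed for Hoxa4, Hoxb3 and Hoxd3, 25% against 13.3%. In ST7 they disagreed for Hoxa4, Hoxb8, Hoxb9, Hoxc10, Hoxd3 and Hoxd13, 50% against 24.3%. The dimmer probe of Hoxd13 gave 2.99 and 3.36 in ST7 where the brighter gave 370.3 and 431. For Hoxa4, a cervical gene, the homeobox probe went from 17.0 and 6.57 in GFP to 179 and 82.5 in ST7, whereas the other probe went from 77.4 and 92.2 to 4.24 and 4.16. For Hoxb9 it was the dimmer probe that stayed above background, with 253 and 158 in GFP cells, 379 and 99.5 in LT7 cells and 383 and 255 in ST7 cells. The homeobox probe of Hoxd9 gave 172 and 101 in GFP and 513 and 286 in ST7, against a fall on its brighter probe. In 6 of the 12 genes both probes were above background on both arrays of GFP or of ST7, and in 5 of these, Hoxa3, Hoxa4, Hoxb3, Hoxb9 and Hoxd9, the unscaled mean change in ST7 had opposite signs on the 2 probes. The direction of these 5 genes in ST7 thus depended on the probe, and Hoxc4 was the exception.

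**Figure D4:**
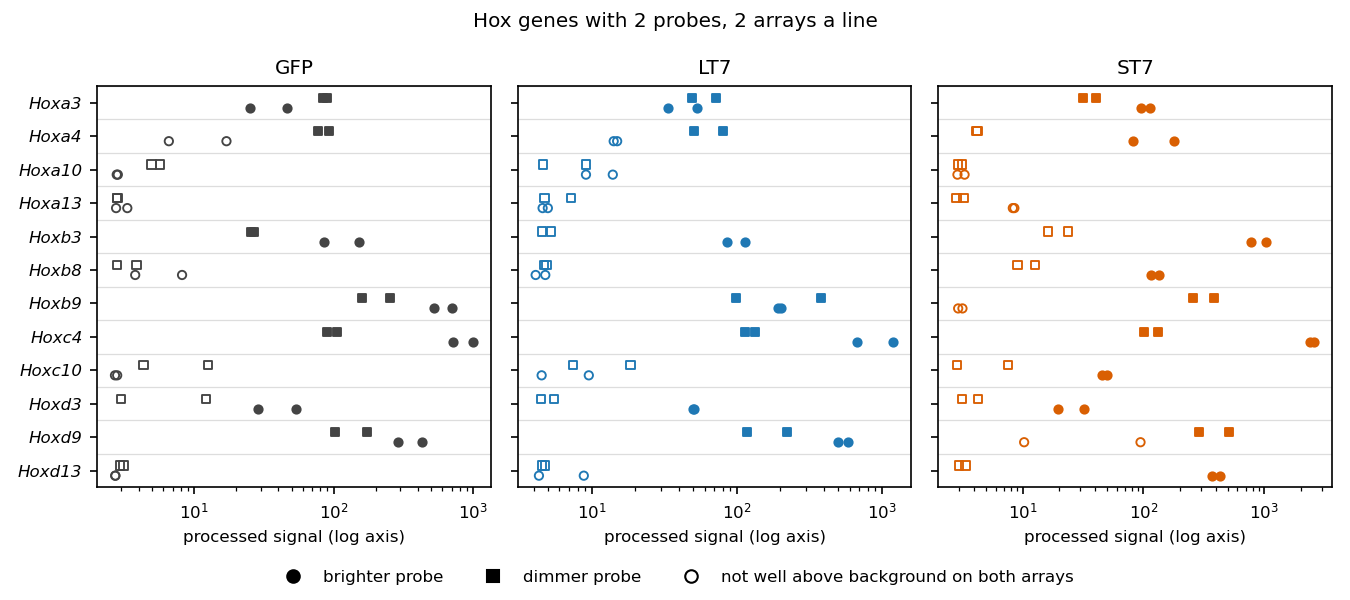
Processed signal (log axis) of both probes of the 12 Hox genes with 2 probes, on both arrays of GFP, LT7 and ST7; circles are the probe that was brighter over all arrays, squares the dimmer, and open symbols lines where an array was not above background. In ST7 the probes of Hoxa4, Hoxb9 and Hoxd13 lie on opposite sides, near 4 or less for 1 probe and at 82.5 or more for the other.

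The probes of ST7 also differed by sequence. Of the 11 Hox probes with a homeodomain stretch, 4 were above background in GFP cells, 4 in LT7 cells and 10 in ST7 cells, the exception in ST7 being Hoxa13. Of the other 39 Hox probes 21 were above background in GFP cells, 19 in LT7 cells and 19 in ST7 cells. Among the 21 coding probes with such a stretch in other genes the numbers were 10, 8 and 8. In ST7 these shares were 90.9% of the 11, 48.7% of the 39 and 38.1% of the 21, against 22.2% of all coding probes. In GFP they were 36.4%, 53.8% and 47.6% against 58.4%, and in LT7 36.4%, 48.7% and 38.1% against 51.4%. The G+C content of the homeobox probes of Hox genes was higher, with a median of 51.7% against 40.0% for the other Hox probes. Over all coding probes above background in GFP, the share that was also above background in ST7 was 18.2% for probes with up to 35% G+C, 36.3% between 40% and 45%, 56.7% between 50% and 55% and 82.0% over 55%, whereas in LT7 it lay between 84.5% and 89.7%. Of the Hox probes above background in GFP, 5 of 5 with 50% to 55% G+C and 2 of 5 with up to 35% were also above background in ST7. These features were looked at after the values were seen, and the part of probe sequence in the ST7 results was not tested. Of the 12 Hox probes with up to 35% G+C and no homeodomain stretch, 5 were above background in each line, those in ST7 being probes of Hoxa5, Hoxa11, Hoxb8, Hoxd3 and Hoxd11.

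**Figure D5:**
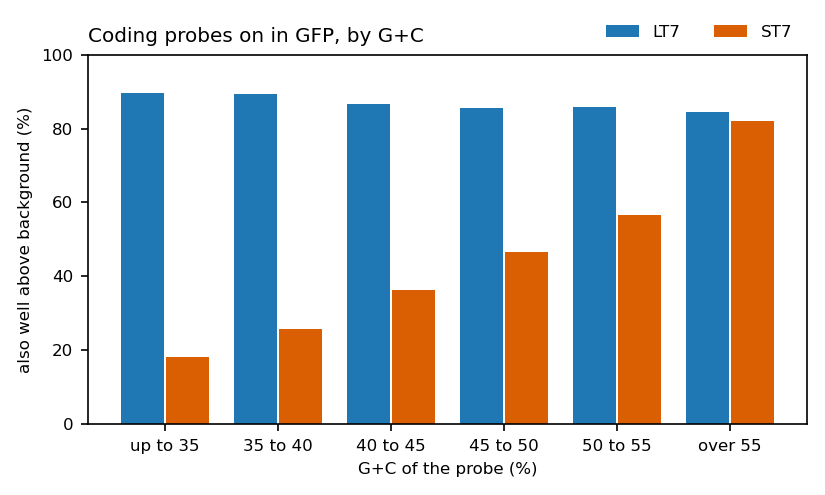
Share of the coding probes above background on both GFP arrays that were also above background on both arrays of LT7 or of ST7, in percent, by the G+C content of the probe. The LT7 bars stay between 84.5% and 89.7%, and the ST7 bars climb from 18.2% to 82.0%.

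For the posterior genes with the highest rise in ST7, the promoters of Hoxa11 and Hoxd13 are shown from RefSeq, from 250 bases before to 50 bases after the start, build GRCm38.p6. Hoxa11 lies on the minus strand at chr6:52245761-52246060 and Hoxd13 on the plus strand at chr2:74667975-74668274, both written 5′ to 3′ along the gene. The capitals mark TATAAA and CCAAT, the TATA and CCAAT boxes, on either strand.
Hoxa11: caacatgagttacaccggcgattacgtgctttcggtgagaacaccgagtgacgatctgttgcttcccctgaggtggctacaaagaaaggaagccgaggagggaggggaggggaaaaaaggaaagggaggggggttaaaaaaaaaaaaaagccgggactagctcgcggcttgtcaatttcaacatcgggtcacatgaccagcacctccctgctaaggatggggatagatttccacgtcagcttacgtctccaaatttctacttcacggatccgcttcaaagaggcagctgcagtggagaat
Hoxd13: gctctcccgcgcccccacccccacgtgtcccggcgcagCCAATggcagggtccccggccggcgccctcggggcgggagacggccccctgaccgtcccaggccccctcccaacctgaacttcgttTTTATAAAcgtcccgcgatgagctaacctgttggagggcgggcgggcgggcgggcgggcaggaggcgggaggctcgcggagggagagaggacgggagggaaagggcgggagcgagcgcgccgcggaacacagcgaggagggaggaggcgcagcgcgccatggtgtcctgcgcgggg
Hoxd13 held both motifs and had 74.3% G+C, and Hoxa11 held neither and had 51.0% G+C. Promoters were found for 22 Hox genes, 24 in all, of which 4 held TATAAA and 15 held CCAAT, against 13.6% and 37.4% of all 32851 promoters of the table. A match is a description of these letters and no evidence of binding.

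The partners of Hox proteins were read from lists. Of the 9 cofactors of the TALE class, homeodomain proteins that bind DNA together with Hox proteins, 8 were above background in GFP and in LT7 and 5 in ST7, and 0 were called in LT7. In ST7 5 were called higher and 4 lower after the shift, while without scaling 1 had a higher and 7 a lower signal on both arrays. Meis2 gave 2502 and 2120 in GFP cells, 3477 and 3531 in LT7 cells and 1063 and 1068 in ST7 cells. Pbx2 gave 2412 and 2034 in GFP cells, 2634 and 2453 in LT7 cells and 1746 and 1836 in ST7 cells. Pbx3 gave 520.4 and 414 in GFP cells, 615 and 339 in LT7 cells and 801 and 728 in ST7 cells. Among the 8 cofactors above background in GFP or ST7 it alone had a higher unscaled signal on both ST7 arrays. Of the 6 ParaHox and caudal genes, relatives of the Hox genes of which the caudal genes regulate Hox transcription, 1 was above background in GFP and LT7 and 3 in ST7. Cdx2, not above background at 2.80 and 2.75 in GFP and 5.15 and 4.72 in LT7, gave 97.4 and 84.4 in ST7. Evx2, next to Hoxd13, was above background in all lines, with 37.5 and 40.3 in GFP cells, 24.1 and 35.7 in LT7 cells and 96.0 and 135.7 in ST7 cells, and Evx1, next to Hoxa13, was so in none. Of 14 listed noncoding transcripts of the clusters only Hoxa11as was found by name, and it was above background on no array.

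Of 10 factors of limb and posterior patterning, 5 were above background in GFP cells, 4 in LT7 cells and 6 in ST7 cells. Pitx1, which sets hindlimb identity, followed the course of Hoxa11, with 2.86 and 2.79 in GFP cells, 149 and 127 in LT7 cells and 4300.0 and 4869 in ST7 cells, and its log2 change in LT7 was 5.70 (adjusted p = 0.0098, limma). Grem1, a BMP antagonist of the limb bud, was the other gene called in LT7, with 1880.0 and 1332 in GFP and 62.1 and 98.6 in LT7, or -4.24 on the log2 scale (limma, adjusted p = 0.035). Both calls were lost without GFP replicate 1 (adjusted p = 0.27 for each, limma) and without GFP replicate 2 (adjusted p = 0.13 for each), and that of Grem1 also without either or both ST7 arrays (adjusted p = 0.083). Isl1, which acts in hindlimb initiation, gave 26.5 and 23.1 in GFP cells, 27.9 and 22.1 in LT7 cells and 745 and 820.1 in ST7 cells. Gli3, the repressor of Hedgehog targets in the limb, gave 1834 and 1967 in GFP cells, 3747 and 2750 in LT7 cells and 63.6 and 53.4 in ST7 cells. Tbx4 was above background on no array.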

How the data were processed

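Cy3-labelled RNA of GFP, LT7 and ST7 cells, 2 arrays a group, was read on 6 Agilent arrays of 1 colour that shared 1 slide. The deposited scanner files hold an intensity per spot, from which the authors' Feature Extraction 10.5.1.1 had subtracted the background; the array's grid is named for mouse build mm9. The deposited series matrix holds the authors' log2 values after a shift to the 75th percentile, which the scanner values gave again for all but 5 to 13 probes per array within 0.01 after the median of each array's difference was taken off. Here spots marked as outliers were left out, none of them Hox probes, repeat spots were averaged, each array's 75th percentile was taken off the log2 signal, and differences were tested with limma 3.58.1 (R 4.3.3), all 6 arrays in the fit and no block. At-least folds set the brighter line's mean against the lowest signal among probes above background, or the probe's own signal where higher, on each array of the dimmer line. Groups came from the sample titles. The Hox genes and the lists of other genes were chosen with earlier results of these data known. 1 Hox gene that met the naming rule is not reported here and enters no Hox count. Values are printed for each Hox gene whose brightest probe was above background on both arrays of a line, and for at most 4 genes of a list, those with the highest signal. The limma script was tested on simulated data. Alternatives were other scalings, background correction, a filter, probe averaging, a replicate block, the fold rule and leaving out arrays. Having 2 arrays a group limits the precision.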

Additional observations from a re-analysis of the deposited data

Results flagged for a closer look

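A difference between the 2 SIRT7GFP lines in their change against GFP drew attention for 3 genes that were above background in GFP. On the brightest probe and under each of the 5 scalings these genes lay below GFP in LT7 and above it in ST7. The comparison of ST7 with LT7 measures that difference. Since the genes were picked from these same values, its p-values are no independent support for the choice. The percentile shift adds 4.3 to each such difference. After it 63.4% of protein-coding gene names were called higher in ST7 than in LT7. For Hoxd10 the log2 change was -1.64 in LT7 and 7.98 in ST7, a difference of 9.62 (SE 0.22, adjusted p = 2.4e-05, limma) or 6.03 less the median of all probes. For Hoxb3 it was -0.11 in LT7 and 7.37 in ST7, a difference of 7.48 (SE 0.34, adjusted p = 3.4e-05) or 3.89 less that median. For Hoxa6 it was -0.18 in LT7 and 5.79 in ST7, a difference of 5.97 (SE 0.50, adjusted p = 0.00012) or 2.38 less that median. On the second probe of Hoxb3 the unscaled log2 change was -2.43 in LT7 and -0.42 in ST7, so that its rise in ST7 rests on 1 probe. In LT7 the change of Hoxb3 turned to 0.18 without GFP replicate 1 and to 0.15 without LT7 replicate 1, that of Hoxa6 turned to 0.22 without GFP replicate 1, and the LT7 values of both genes overlapped those of GFP. None of the 3 changes in LT7 passed the test on its own (adjusted p from 0.10 to 0.89). Groups of 2 arrays are too small for a test of single arrays that lie apart.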

How the results depend on the processing

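In LT7 against GFP the count of Hox genes called was 1, Hoxa11. It was 0 after quantile normalization, 0 after scaling to the spike-in RNAs, 0 with the replicate block, 2 with normexp background correction and 6 by the fold rule, and it ranged from 0 to 1 when single arrays were left out. The adjusted p of Hoxa11 ranged from 0.0032 to 0.49 over all alternatives (limma), and was 0.059 after quantile normalization, 0.49 after scaling to the spike-in RNAs, whose signals on LT7 replicate 1 stood at 12.87 in log2 against 8.48 to 8.75 elsewhere, and 0.10 with the replicate block. Replicate numbers did not pair the samples (r of 0.114, 0.071 and -0.039 between groups), and the block changed no other count by more than 1.5 times, with 34 Hox genes in ST7 against GFP and 36 in ST7 against LT7. In ST7 against GFP 34 Hox genes were called, and 12 where the spike-in RNAs set the scale. In ST7 against LT7 35 were called, and 16 with the spike-in RNAs. The shares of all gene names called on the spike-in scale are not given here. Leaving out single arrays gave 33 to 35 and 35 to 36. Called changes less the median of all probes turned sign for Hoxd3 and Hoxd4 alone: -0.12 and -0.36 with normexp, -0.12 and -0.00 with the mean over probes, -0.17 and -0.35 without GFP replicate 2, and -0.30 and -0.27 without ST7 replicate 1, in a range from -0.30 to 0.46 for Hoxd3 and from -0.35 to 0.68 for Hoxd4 over the single arrays left out. The cause was not tested. Of the genes named in LT7, Hoxb9 passed with normexp on its brightest probe, with a change of -1.22. With the mean over its probes the change of Hoxb9 was -0.73. The counts of genes above background were 19, 18 and 25 in GFP, LT7 and ST7 on the brightest probe alone and 21, 20 and 28 with either array in place of both. The lowest signal marked above background in ST7 was 13.9 and 15.5, close to the 75th percentile of all probes of 16.3 to 17.1.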

Other observations

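Regulators that keep Hox genes silent or active were read from lists as well. Of 27 Polycomb group genes 26 were above background in GFP cells, 25 in LT7 cells and 16 in ST7 cells, and 0 were called in LT7. In ST7 after the percentile shift 13 were called higher and 11 lower, and without scaling 3 of the 26 on in GFP or ST7 had a higher and 21 a lower signal on both ST7 arrays. The 4 with the highest signal were Cbx6, Rbbp7, Rbbp4 and Phc2. Cbx6, a reader of the repressive histone mark, gave 12740 and 10810 in ST7 against 16450 and 15340 in GFP, while Rbbp4, a histone chaperone of a Polycomb repressive complex, gave 2.93 and 3.54 against 8709 and 9694 on its brightest probe. Through other probes Rbbp4 still counted as above background in ST7. Of the 13 Trithorax group genes and H3K27 demethylases on the array, 13 were above background in GFP cells, 12 in LT7 cells and 4 in ST7 cells. All 13 had a lower unscaled signal on both ST7 arrays, as had 83.9% of protein-coding gene names above background in GFP or ST7.

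Retinoic acid switches on anterior Hox genes. Of 14 of its receptors and enzymes 8 were above background in GFP cells, 6 in LT7 cells and 2 in ST7 cells, and 0 were called in LT7. Cyp26b1, which degrades retinoic acid, gave 1983 and 2057 in GFP cells, 4573 and 3508 in LT7 cells and 2.83 and 3.21 in ST7 cells, and Crabp1, which binds it, 1194 and 1070.0, 2780.0 and 2675, and 2.90 and 3.19. Both LT7 values of both genes lay above the GFP values, with log2 changes of 1.09 and 1.37 that did not pass the test (adjusted p = 0.10 for each, limma). Of the other marker lists, 2 of 5 macrophage markers were above background in GFP and LT7 and 0 in ST7, 0 of 4 pluripotency markers in GFP and LT7 and 1 in ST7, and 0 of 5 skeletal muscle markers in GFP and LT7 and 1 in ST7.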
